A study of Mus musculus with 2 samples.

Results

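Matrix metalloproteinases (MMPs) are zinc-dependent enzymes that cut collagens, elastin, proteoglycans and other matrix proteins outside the cell, and tissue inhibitors of metalloproteinases (TIMPs) are small secreted proteins that bind and block them. Most MMPs are made as inactive precursors, so transcript level, removal of the propeptide and inhibition by TIMPs together set their activity. In injured muscle they are known to clear damaged matrix and basement membrane, and infiltrating myeloid cells, fibroblasts and muscle cells are all known sources. The set described here holds 10 genes of the 19938 that could be measured: 7 proteases (Mmp2, Mmp9, Mmp3, Mmp12, Mmp13, Mmp14 and Mmp19) and 3 inhibitors (Timp1, Timp2 and Timp3). They were chosen by symbol, with their values on these arrays already known, so their differences are a description. Each of the 10 genes has 1 probe set, so no choice between probe sets had to be made.

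The values come from regenerating tibialis anterior muscle, a muscle of the shin, of mice of 129Sv/C57BL6 background aged 2 to 4 months, both sexes included. One pool held equal amounts of total RNA from 5 Mef2a knockout mice (Mef2a -/-), and the other from 5 wild type mice (Mef2a +/+). Every muscle had been injected with 50 µl of 10 µM cardiotoxin, a venom peptide that kills muscle fibres and spares the satellite cells that rebuild them, and was taken 7 days later. The labels name no promoter or cell type that would restrict the loss of Mef2a, a muscle transcription factor of the MEF2 family, nor the deleted part of the gene. Each pool was hybridised to 1 array, so no value below has a replicate error and no test was possible. The comparison asks which of these genes differ between the pools.

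Values are log2 RMA values of a probe set, which compare a gene between the pools but not one gene with another. The Mef2a probe set read 9.06 in the labelled knockout pool and 8.92 in the wild type pool, so it was not lower in the pool labelled as its knockout. Whether it lies in the deleted part is not given in the sources used here, and the direction of every difference rests on the labels alone. A floor of 4.395, the median of all values, was used to set aside dim genes, and 11787 genes reached it in at least 1 pool. All 15 muscle fibre markers reached it, which fits the labelled tissue, and their median difference was -0.17. RMA makes the distributions of both arrays nearly equal, so a difference shared by most genes cannot be seen.

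Promoter sequences are shown first because 3 of the proteases belong to the same gene cluster and share a motif there. RefSeq holds a window of 250 bases before to 50 bases after the annotated start (GRCm38.p6) for 7 of the 10 genes in the table used here, which has none for Mmp2, Mmp9 and Mmp19. The 250 bases before the start were searched on both strands for TGANTCA, the motif of AP-1, a dimer of FOS and JUN proteins known to drive several MMP genes. It was found for Mmp12, Mmp3 and Mmp13, all on the plus strand of chromosome 9. Of 32851 windows of all genes, 6.75% held it. The last 100 bases before the start are printed 5′ to 3′, with the AP-1 motif in capitals, at chr9:7347274-7347373 for Mmp12 (the second of its 2 annotated starts), chr9:7445722-7445821 for Mmp3 and chr9:7272414-7272513 for Mmp13.
Mmp12: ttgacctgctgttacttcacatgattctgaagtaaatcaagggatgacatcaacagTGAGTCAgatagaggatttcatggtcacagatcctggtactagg
Mmp3: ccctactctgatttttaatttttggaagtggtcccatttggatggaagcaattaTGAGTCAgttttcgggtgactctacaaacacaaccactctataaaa
Mmp13: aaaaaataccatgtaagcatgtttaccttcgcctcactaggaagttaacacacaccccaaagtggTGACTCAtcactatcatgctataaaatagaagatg

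The motif began 44 bases before the start in Mmp12, 46 in Mmp3 and 35 in Mmp13. The differences of these 3 genes, given below, were unlike in size and sign. Among the inhibitors the window of Timp1, which had the largest difference of the 3, is shown at chrX:20869966-20870165 on the plus strand, with AGGAAG, the PEA3 motif of ETS factors, in capitals.
Timp1: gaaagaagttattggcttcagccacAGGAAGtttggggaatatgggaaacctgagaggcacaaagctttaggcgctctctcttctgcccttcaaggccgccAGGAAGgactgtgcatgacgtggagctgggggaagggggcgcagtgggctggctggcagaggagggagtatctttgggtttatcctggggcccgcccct

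The PEA3 motif began 175 and 99 bases before the Timp1 start. It is common, being held by 29.5% of all windows, and by those of 6 of the 7 genes (Mmp3, Mmp12, Mmp13, Mmp14, Timp1 and Timp3). In Mmp12 the PEA3 match lay in the window of the first annotated start and not in the window printed above. The Sp1 motif GGGCGG was held by Mmp14 and by all 3 inhibitors, and by 32.7% of all windows. TGTGGT, the motif of RUNX factors, was held by Mmp13 and Mmp14 and by 14.0% of all windows. The TATA box TATAAA was held by Mmp3 and Mmp13 and by 12.4% of all windows. The MEF2 box, the motif bound by MEF2A and the other factors of its family, was held by none of the 7 genes and by 2.92% of all windows. No match printed in capitals overlapped a match to another of these motifs. A match is a run of letters and not a shown binding site.

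The gelatinases, which digest denatured collagen and basement membrane collagen, stood far apart within the set. Mmp9, gelatinase B, a product of neutrophils, macrophages and osteoclasts, read 8.75 in the labelled knockout pool and 5.16 in the wild type pool (probe set 10478633). The difference of 3.58, or 12.0-fold, was the highest of all 11787 genes at or above the floor. Mmp2, gelatinase A, which fibroblasts and other stromal cells make steadily, read 9.98 in the labelled knockout pool and 10.03 in the wild type pool (probe set 10573924). Its difference was -0.04, higher than that of 39.2% of the 11787 genes, so these enzymes of overlapping substrates differed by unlike amounts. Mmp2 overlaps the long non-coding RNA gene Gm45472 in the reference, which was not analysed here.

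Metalloelastase and Mmp19 were higher by clearly more than most genes. Mmp12, the elastin-digesting enzyme named for its macrophage origin, read 9.25 in the labelled knockout pool and 7.77 in the wild type pool, a difference of 1.48 or 2.79-fold (probe set 10583056). Mmp19, a secreted MMP that cuts basement membrane proteins, read 8.06 in the labelled knockout pool and 6.30 in the wild type pool, a difference of 1.76 or 3.39-fold (probe set 10367400). These were the 50th and 26th highest differences of the 11787 genes. Mmp19 overlaps Tmem198b in the reference, and the probe set of Tmem198b read 5.92 in the labelled knockout pool and 5.68 in the wild type pool, a difference of 0.23.

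The other 3 proteases lay within 1.5-fold. Mmp14, the membrane-anchored enzyme that activates the MMP2 precursor at the cell surface, read 10.04 in the labelled knockout pool and 9.54 in the wild type pool, 1.41-fold higher (probe set 10415052). Mmp3, stromelysin 1, which cuts proteoglycans and activates other MMP precursors, read 6.30 in the labelled knockout pool and 5.97 in the wild type pool, a difference of 0.33 (probe set 10583071). Mmp13, collagenase 3, which cleaves fibrillar collagens, read 8.28 in the labelled knockout pool and 8.49 in the wild type pool, and its difference of -0.21 was the lowest of the set (probe set 10583044). Mmp13 was thus not higher in the pool in which Mmp9 was.

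**Figure D1:**
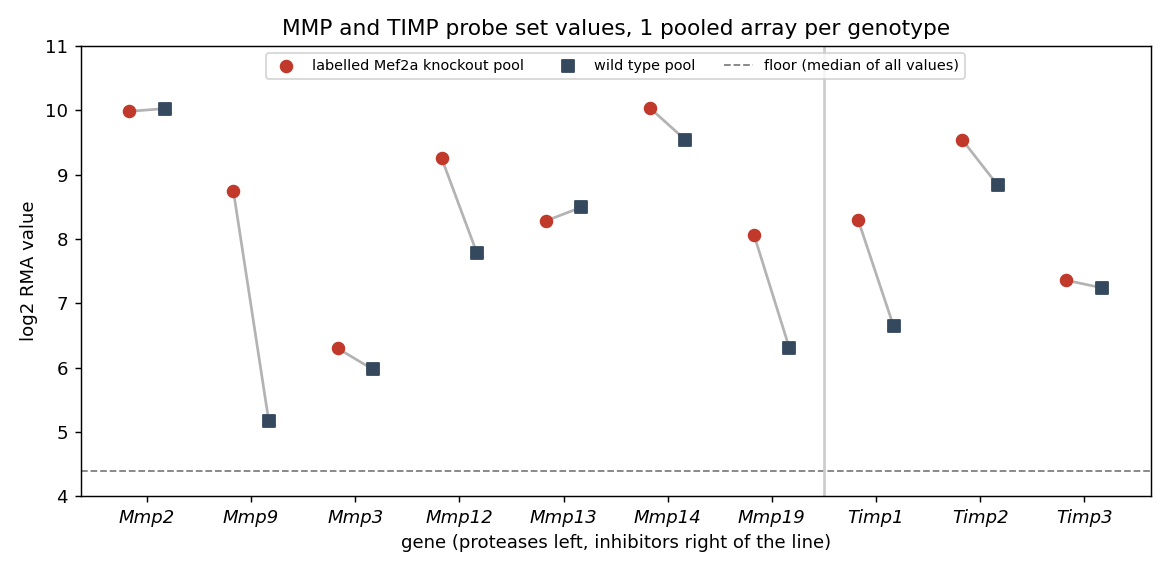
Log2 RMA value of each protease and inhibitor (vertical axis) in the labelled Mef2a knockout pool (circles, left) and the wild type pool (squares, right), 1 array each. Mmp9 has the longest connecting line (8.75 against 5.16), while those of Mmp2 and Timp3 are nearly flat.

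The inhibitors formed a graded series. Timp1, an inducible inhibitor that also binds the MMP9 precursor, read 8.29 in the labelled knockout pool and 6.64 in the wild type pool, a difference of 1.65 or 3.14-fold (probe set 10598976). Timp2, which blocks MMPs and, bound to MMP14, takes part in activating MMP2, read 9.54 in the labelled knockout pool and 8.83 in the wild type pool, 1.63-fold higher (probe set 10393559). Timp3, which is held in the matrix and also inhibits ADAM and ADAMTS enzymes, read 7.36 in the labelled knockout pool and 7.24 in the wild type pool, a difference of 0.12 (probe set 10365482).

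Timp1 and Timp3 lie within the synapsin genes Syn1 and Syn3 in the reference. The Syn1 probe set read 3.27 in the labelled knockout pool and 3.52 in the wild type pool, and that of Syn3 read 3.50 in the labelled knockout pool and 3.64 in the wild type pool. Both host genes were below the floor in both pools. Timp2 overlaps Cep295nl, whose probe set read 4.93 in the labelled knockout pool and 5.02 in the wild type pool.

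Counted together, 5 of the 10 genes were at least 1.5-fold higher in the labelled knockout pool (Mmp9, Mmp19, Mmp12, Timp1 and Timp2) and 0 were 1.5-fold lower. Among all 11787 genes the share past that limit was 6.45% on the higher side and 1.90% on the lower. At 2-fold, 4 of the 10 genes were higher (all but Timp2 of those 5) and 0 lower, beside 1.70% and 0.187% of all genes. Because the genes were picked with these values known, nothing is read from the shares. The median difference was 0.60 over the 10 genes and 0.03 over the 11787.

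**Figure D2:**
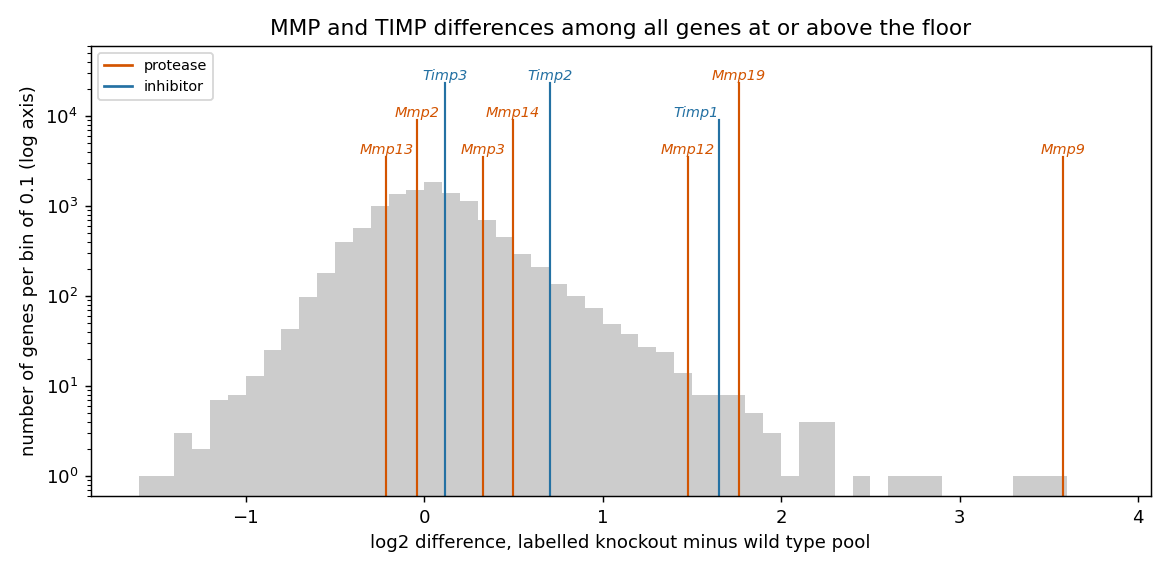
Number of genes per bin of 0.1 log2 units (log axis) against the log2 difference, labelled knockout minus wild type, for the 11787 genes at or above the floor, with lines at the proteases (orange) and inhibitors (blue). Mmp9 stands at the right end at 3.58, and Mmp13, Mmp2 and Timp3 lie in the bulk of the genes.

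The differences of proteases and inhibitors overlapped. The 7 proteases had a median difference of 0.50 and ran from -0.21 to 3.58, and the 3 inhibitors had a median of 0.71 and ran from 0.12 to 1.65. By their means the order was the opposite, 1.06 for the proteases and 0.82 for the inhibitors. Of the proteases 3 of 7 were at least 1.5-fold higher, and of the inhibitors 2 of 3.

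Subtracting an inhibitor's difference from a protease's gives the change of their signal ratio between the pools. Of the 21 such pairs, 10 were positive and 11 negative. Mmp9 was positive with each inhibitor, by 1.93 with Timp1, 2.88 with Timp2 and 3.47 with Timp3, so its signal was higher by more than that of any of them. Mmp12 and Mmp19 differed about as much as Timp1 (-0.17 and 0.11), and by more than Timp2 (0.77 and 1.06) or Timp3 (1.36 and 1.65). Mmp13 and Mmp2 were negative with each inhibitor, down to -1.86 and -1.69 with Timp1. For the activating group of Mmp14, Timp2 and Mmp2, the Mmp14 and Timp2 differences lay within 0.21 of each other, while Mmp2 was below Timp2 by 0.75. These are ratios of transcript signal and say nothing of protein or activity.

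**Figure D3:**
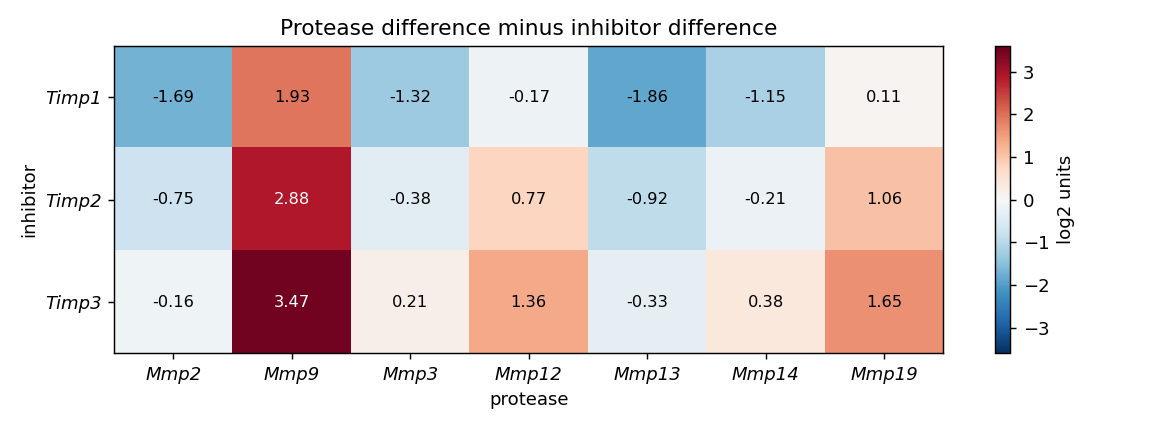
Log2 difference (labelled knockout minus wild type) of each protease (columns) minus that of each inhibitor (rows), in log2 units, red where the protease difference is larger. The Mmp9 column runs from 1.93 to 3.47 and is red throughout, and the Mmp13 column runs from -1.86 to -0.33.

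Mmp13, Mmp12 and Mmp3 belong to a cluster of 10 MMP genes on chromosome 9, with no other protein-coding gene between the first and the last in the reference. Only these 3 of the 10 reached the floor in either pool. In reference order Mmp13 differed by -0.21, Mmp12 by 1.48 and, after Mmp1b, Mmp3 by 0.33. Mmp1b and Mmp1a, which lie on either side of Mmp3, read 1.77 and 1.82 in the labelled knockout pool, against 1.61 and 1.82 in the wild type pool. Mmp10, stromelysin 2, came nearest to the floor, at 3.96 in the labelled knockout pool and 4.37 in the wild type pool. Mmp8, the collagenase stored by neutrophils, read 2.11 in the labelled knockout pool and 2.07 in the wild type pool. Mmp27, Mmp20 and Mmp7 read from 2.85 to 3.32 in the labelled knockout pool and from 3.20 to 3.70 in the wild type pool. Mmp12 was thus past 1.5-fold and its neighbours on either side were not. The AP-1 motif was held by windows of 8 of the 10 genes, all but Mmp8 and Mmp27, and 5 of these 8 stayed below the floor in both pools. The genes of such a cluster are related in sequence and are not independent of each other.

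**Figure D4:**
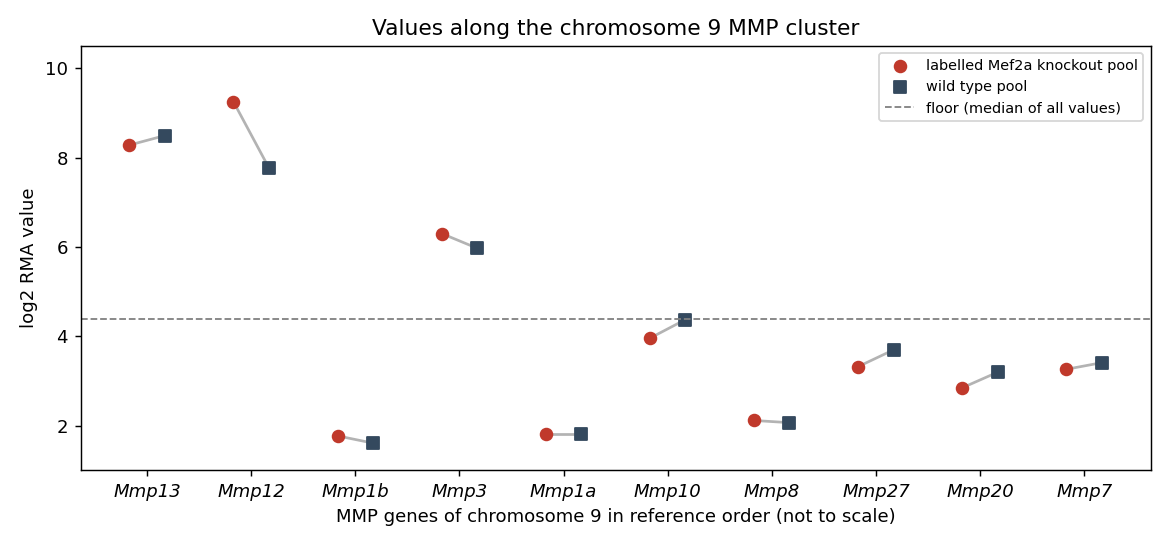
Log2 RMA values (vertical axis) of the 10 MMP genes of chromosome 9 in reference order, in the labelled Mef2a knockout pool (circles, left) and the wild type pool (squares, right), 1 array each. Mmp13, Mmp12 and Mmp3 lie above the floor (dashed line at 4.395), and of these Mmp12 has the largest gap, 9.25 against 7.77.

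Outside the set, 16 further MMP and TIMP genes were measured, and 5 reached the floor, 0 of them past 1.5-fold in either direction. Timp4, an inhibitor typical of heart and muscle, read 4.79 in the labelled knockout pool and 5.34 in the wild type pool, a difference of -0.55. Mmp28, epilysin, differed by -0.43, to 4.24 in the labelled knockout pool, below the floor, against 4.67 in the wild type pool. Mmp11 (-0.11), Mmp16 (-0.10) and Mmp23 (0.19) differed by less. The median of the 5 was -0.11.

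The lists that follow were measured in RNA in which the macrophage markers, described at the end, had a median difference of 1.06, and their part in these lists was not tested. Among the related metalloproteases, Adam8 came close to Mmp19 in size. ADAM8, a membrane protease of myeloid cells and osteoclasts, read 7.41 in the labelled knockout pool and 5.67 in the wild type pool, 3.32-fold higher. Adam17, the sheddase that frees TNF and is blocked by TIMP3, was 1.55-fold higher, and the other 6 of the 8 ADAM genes lay within 1.5-fold. Of 14 ADAMTS genes at or above the floor, which cut proteoglycans and procollagens, 1 was 1.5-fold higher, the aggrecanase Adamts4 (1.60-fold), with Adamts6 next at 0.39. That count is near the share of all genes, 6.45%, so nothing is read from it. The median was 0.37 for the ADAM genes and 0.08 for the ADAMTS genes, beside 0.03 for all genes.

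Plasmin, made from plasminogen by urokinase and tissue activator, is known to activate MMP precursors. Of the 5 plasminogen system genes at or above the floor, 4 were at least 1.5-fold higher and 0 lower, beside 6.45% and 1.90% of all genes. Plaur, the urokinase receptor, read 6.82 in the labelled knockout pool and 5.67 in the wild type pool, 2.22-fold higher. Anxa2 (1.57-fold) and S100a10 (1.51-fold), whose products form a plasminogen-binding complex on the cell surface, and Plat, tissue plasminogen activator (1.53-fold), lay close to the limit. Plg itself, a liver gene, was below the floor in both pools.

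Of 14 convertases, surface partners and other MMP inhibitors, 5 were at least 1.5-fold higher and 0 lower, beside 6.45% and 1.90% of all genes. Itgb3, the integrin beta 3 chain, was 2.09-fold higher, and Cd44, the hyaluronan receptor that can hold MMP9 at the cell surface, was 1.98-fold higher. Lcn2, a secreted lipocalin that can form a complex with MMP9, read 5.65 in the labelled knockout pool and 4.71 in the wild type pool. Lrp1, a receptor that takes up MMPs and protease-inhibitor complexes, was 1.74-fold higher. The convertase genes Furin, Pcsk5, Pcsk6 and Pcsk7 and the inhibitor genes Reck and Tfpi2 lay within 1.5-fold.

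Of 25 genes of matrix proteins that MMPs cut, 2 were at least 1.5-fold higher and 0 lower, a share near the 6.45% of all genes on the higher side, with a median of 0.15. They were Tnc, tenascin C (9.26 in the labelled knockout pool and 7.85 in the wild type pool, 2.65-fold higher), and Vcan, the proteoglycan versican (1.52-fold higher). Fibrillar and basement membrane collagens and laminins were within 1.5-fold.

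Among cytokines known to induce MMP genes, and their receptors, 12 genes reached the floor. Of these, 6 were at least 1.5-fold higher and 0 lower, beside 6.45% and 1.90% of all genes. The cytokine genes Il1a, Il1b, Il6, Osm and Il17a were below the floor in both pools, and Il1r1 had no probe set of its own. Csf1, the macrophage growth factor, was 2.54-fold higher, its receptor gene Csf1r, which is also on the macrophage list, 1.75-fold and the TNF receptor gene Tnfrsf1b 1.81-fold. Tnf read 4.43 in the labelled knockout pool and 3.71 in the wild type pool, the second value below the floor. Of 14 AP-1, ETS and RUNX factor genes, 3 were at least 1.5-fold higher and 0 lower, beside the same 6.45% and 1.90%. They were Atf3 (1.69-fold), Fosb (1.63-fold, 5.19 in the labelled knockout pool and 4.49 in the wild type pool) and Runx1 (1.51-fold). The other 11 lay within 1.5-fold, Fos, Jun, Junb, Jund and all ETS genes of the list among them. The median of the 14 was 0.11.

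Markers of macrophages and osteoclasts at or above the floor were higher as well, where 6.45% of all genes were at least 1.5-fold higher. Of 16 macrophage markers, 15 were at least 1.5-fold higher, led by Msr1 (4.31-fold), Gpnmb (3.89-fold) and Itgam (3.48-fold), with a median of 1.06. Their summed linear signal was 12129 in the labelled knockout pool and 5125 in the wild type pool. Of 8 osteoclast markers, 6 reached the floor and 5 were at least 1.5-fold higher, and the summed signal was 2165 in the labelled knockout pool and 565 in the wild type pool. Of these 5, Dcstamp (5.27 in the labelled knockout pool and 3.52 in the wild type pool) and Ocstamp (4.83 in the labelled knockout pool and 4.03 in the wild type pool) reached the floor in the labelled knockout pool alone. Calcr and Oscar were below it in both pools but are part of the summed signal. The osteoclast list holds marker genes only and does not show that osteoclasts were present in this muscle. The part of cells carrying either set of markers in the Mmp9, Mmp12, Mmp19 and Timp1 differences was not tested. In RNA of whole muscle, more cells of a type and more RNA per cell cannot be told apart.

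The differences of Mmp9 (3.58), Mmp19 (1.76), Timp1 (1.65) and Mmp12 (1.48) lay above the macrophage median of 1.06. Those of the other members, from -0.21 to 0.71, lay below it. The 4 genes above it are the members past 2-fold, known before the comparison, so nothing is read from their lying above it. Of these 4, Mmp9 alone lay above the osteoclast median of 1.85. The macrophage markers ran from 0.41 to 2.11, so Mmp19, Timp1 and Mmp12 lay within their range. Mmp9 had the highest difference of all 11787 genes, so it lay above every marker by necessity, and nothing is read from that. The highest macrophage or osteoclast marker was the osteoclast phosphatase gene Acp5, at 2.41. Of 11 neutrophil markers, 10 were below the floor in both pools, Ly6g, S100a8, S100a9 and Mpo among them. Csf3r (5.16 in the labelled knockout pool and 4.78 in the wild type pool) reached it. The summed neutrophil signal, which includes the 10 genes below the floor, was 132 in the labelled knockout pool and 111 in the wild type pool. Lymphocyte markers were below the floor in both pools for all 7 measured.

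Fibroblast markers were near level. Of 10, 1 was at least 1.5-fold higher (Thy1, 1.53-fold) and 0 lower, Fbln1 was next at 0.34, the median was 0.06, and the summed signal was 3216 in the labelled knockout pool and 3058 in the wild type pool. Muscle fibre markers were slightly lower, with 14 of 15 below 0, beside 5245 of all 11787 genes. Of these markers Myh2 was 1.53-fold lower and Ryr1 stood at -0.31. The summed signal of the fibre markers was 40774 in the labelled knockout pool and 44992 in the wild type pool. Among regenerating muscle markers 1 of 8 was at least 1.5-fold lower, and among endothelial markers 1 of 8 at least 1.5-fold higher. Mast cell markers held 0 of 3 past 1.5-fold. Among all 11787 genes 6.45% were at least 1.5-fold higher and 1.90% lower. Nothing is read from calls of 1 gene in lists as short as those of this paragraph.

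**Figure D5:**
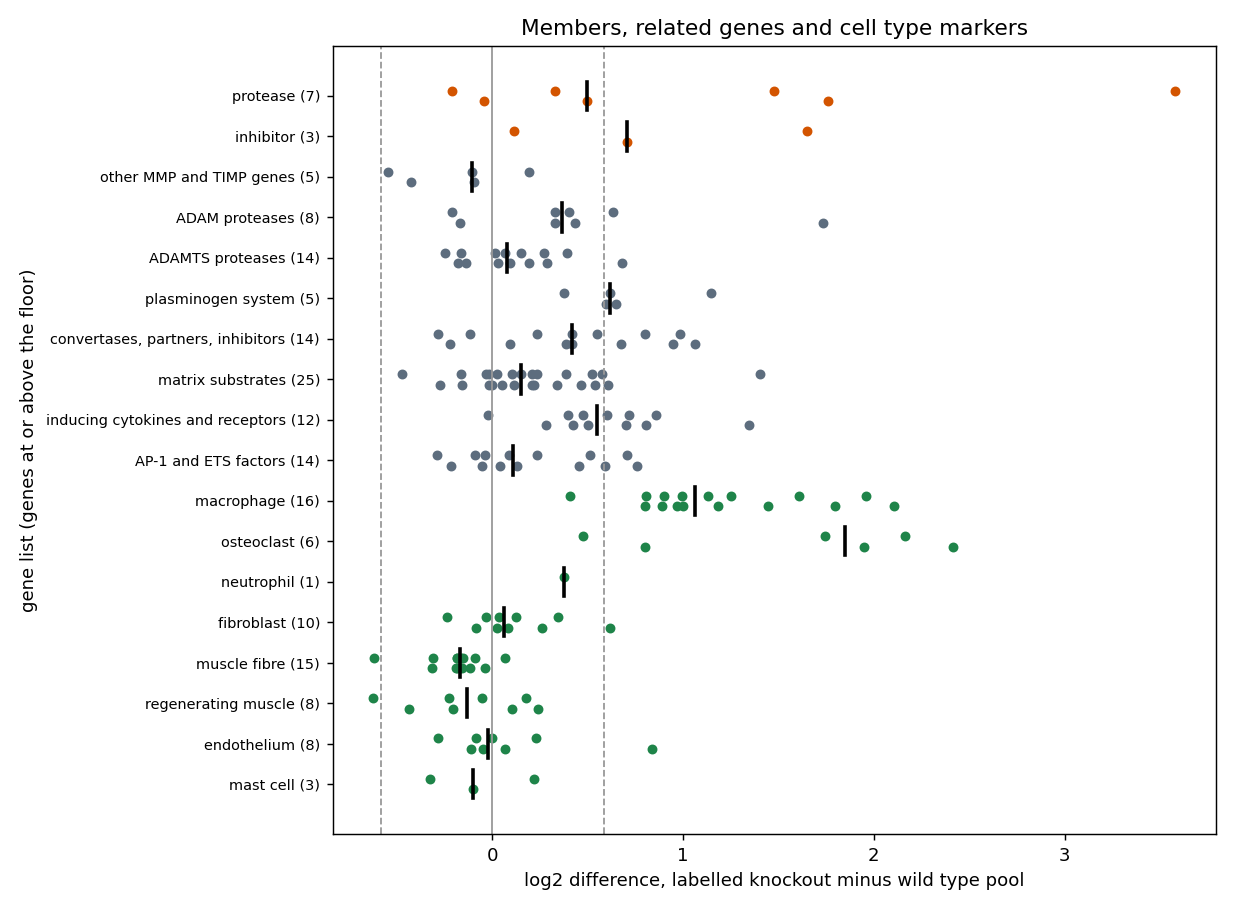
Log2 difference (labelled knockout minus wild type) of each gene at or above the floor, by list, with the list's median as a black bar, dashed lines at 1.5-fold and the number of genes in brackets. The macrophage markers lie between 0.41 and 2.11, the fibroblast and fibre markers lie around 0, and the proteases span from -0.21 to 3.58.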

How the data were processed

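The authors' deposited table gives 1 log2 expression value per probe set and array for 35557 probe sets on 2 arrays. Per the submitters' processing notes, the values were made with RMA in Affymetrix Expression Console, which corrects background, normalizes by quantiles and summarises probes. No version or setting is named in those notes. RNA was pooled before hybridisation, per the labels' protocols, so the spread between mice and between arrays is unknown, and the number of arrays limits the precision.

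Of the probe sets, 21789 had 1 gene symbol in the platform annotation, 1621 several and 12147 none, and those with 1 symbol were used. A gene took its probe set of highest mean. Differences are labelled knockout minus wild type, computed in Python 3.11.15 with pandas 2.3.3, numpy 2.4.6 and statsmodels 0.14.6, with figures in matplotlib 3.10.9. A fold is 2 to the power of the difference. With 1 array a genotype no p-value is given, and genes were counted past 1.5-fold, a limit with no test behind it. Summed signals add the values after undoing the logarithm, over all measured genes of a list, those below the floor included. The brightest probe sets weigh most in them. RMA values near the floor understate differences. List medians cover genes at or above the floor. The counting was tested on simulated normal differences with known shifts, which checks the code and not the calls made on these arrays. The members and lists were chosen with earlier results of these data known. Of 129 related genes, 122 had a probe set of their own, and 7 were not analysed here.

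The rule for naming took all 10 members, Mef2a, every further MMP or TIMP gene at the floor, up to 4 genes per related list and up to 3 per main marker list with the largest differences past 1.5-fold, or the 2 largest where fewer than 2 passed. Genes that overlap a member, other cluster genes and markers named for lying below the floor or for being highest in their list were added after their values were seen. So were related genes named for lying within 1.5-fold. Alternatives were median centring, subtraction of a loess curve fitted against mean expression (span 0.3), the mean of all probe sets, no floor, a higher floor (75th percentile) and a limit of 2-fold.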

Additional observations from a re-analysis of the deposited data

How the results depend on the processing

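Over the main setting and 5 alternatives, Mmp9 ranged from 3.52 to 3.61, Mmp19 from 1.70 to 1.79 and Timp1 from 1.59 to 1.68. Mmp12 ranged from 1.44 to 1.51 and Timp2 from 0.68 to 0.74, and none of the 10 genes changed sign or its side of 1.5-fold. Most of these alternatives could not have shown otherwise. Each member has 1 probe set, so the mean of all probe sets changed none of them, and a change of floor alters no difference. Median centring moved every gene by the same small amount. Only removal of the loess trend could change the genes by different amounts, and its changes were small. Of 220 recomputed values 208 stayed close (counts within 1.5 times, differences within 0.28, the robust SD over genes at or above the floor), 12 counts moved and 0 values reversed. The 208 include the member differences that could not change. With the loess trend removed, 1 ADAM gene, 2 plasminogen system genes and 1 matrix substrate were still past 1.5-fold higher, the others having lain close to that limit. With the floor at the 75th percentile, 0 ADAMTS genes were. A 2-fold limit, which is stricter by construction, left 1 inhibitor, 1 ADAM gene, 0 ADAMTS genes, 1 plasminogen system gene, 1 of the convertases, surface partners and other inhibitors, 1 matrix substrate, 1 cytokine or receptor and 0 AP-1 and ETS factors higher. No paired analysis was possible because each genotype has 1 array. Without replicates or detection calls, neither error nor background can be given for any gene.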

Other observations

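Across all genes at or above the floor that had a promoter window, the share at least 1.5-fold higher in the labelled knockout pool was 11.2% (60 of 534) where the 250 bases before a start held the AP-1 motif TGANTCA, and 6.10% (540 of 8852) where they did not. The median differences were the same to 2 decimals, 0.03 in each, so the shares differed in the upper tail. For the PEA3 motif AGGAAG the shares were 8.25% with and 5.52% without, for the RUNX motif TGTGGT 8.48% and 6.09%, and for the TATA box TATAAA 9.74% and 6.09%. For the Sp1 motif GGGCGG the order was the other way, 5.98% with and 7.14% without, as it was for the MEF2 box, 4.46% (9 of 202) with and 6.44% without. The motifs are not independent of each other, genes with several annotated starts have more chances to hold one, and no test was made. The gene groups overlap, so these are shares of 1 pair of arrays and not separate results.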
